A study of Mus musculus with 82 samples.

Results

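The genes described here are 10 genes of glycolysis, 1 for each of 10 enzymes between glucose and lactate: Hk2, Gpi1, Pfkl, Aldoa, Tpi1, Gapdh, Pgam1, Eno1, Pkm and Ldha. They were chosen by name, as enzymes of the pathway, from 24321 curated RefSeq genes that were counted. The study measured nascent RNA in V6.5 mouse embryonic stem (ES) cells, an established line that was grown on gelatin in serum with leukaemia inhibitory factor (LIF) and received no treatment or genetic change. All groups share this line and culture and differ in the assay. AGTuC runs engaged RNA polymerases on in a cell population with a strong detergent that opens the nuclei, inAGTuC does the same in intact nuclei spread over the barcoded wells of a plate, and scGRO-seq sorts the intact nuclei singly into the wells, so that a well barcode stands for 1 cell. The comparison uses 2 AGTuC libraries of 1 experiment (Exp125c_c01 and Exp125c_c02), 4 inAGTuC libraries (Exp208_c12, Exp208_c14, Exp234_c11 and Exp261_c16) and 10 scGRO-seq batches, each the sum of its kept cells.

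Glycolysis splits glucose into pyruvate in the cytoplasm and yields ATP and NADH, and lactate dehydrogenase then turns pyruvate into lactate and regenerates NAD+. Mouse ES cells in culture are known for a high glycolytic rate. In a run-on assay each read marks the place of an engaged polymerase: reads near the start include polymerases paused there, reads in the body come from elongating polymerases, and reads past the annotated end come from polymerases that have passed the poly(A) site and have not yet left the DNA.

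The deposited lists of these libraries and batches held 2243292 to 4767439 reads per AGTuC library, 787132 to 1912347 per inAGTuC library and 20826 to 1917577 per scGRO-seq library. Reads with the same position, strand, barcode and unique molecular identifier (UMI) in more than 1 library made up 0.33% of AGTuC, 16.8% of inAGTuC and 28.9% of scGRO-seq reads and were left out of every library. The scGRO-seq list Exp261_c16 repeats the inAGTuC library of that name and was not counted. The scGRO-seq batches held 2507 kept cells in 35 libraries, with 1177 to 51431 UMIs per cell. The libraries use only 96 barcodes per plate (288 distinct ones over 53 scGRO-seq libraries), so that a cell is a barcode within a library. The labels are borne out by 10 markers of ES cells (Pou5f1, Sox2, Nanog and others), each of which had reads in every assay (Dppa5a, in inAGTuC and scGRO-seq, only outside the body as counted) and whose summed gene-body level was 3092 to 3261 UMIs per 1000000 in AGTuC, 969.4 to 1556 in inAGTuC and 673.1 to 2260 in scGRO-seq. The sum over 8 fibroblast markers was 30.3 to 32.5 in AGTuC, 36.2 to 100 in inAGTuC and 27.2 to 117.1 in scGRO-seq, and 5 of the 8 were at 0 in AGTuC. That over 4 neural markers was 111.6 to 123.9 in AGTuC, 31.8 to 55.8 in inAGTuC and 17 to 53.7 in scGRO-seq. The sum over 5 primitive endoderm markers was 49.2 to 53.1 in AGTuC, 43.7 to 172.1 in inAGTuC, the highest value of these other lists, and 18.9 to 114.9 in scGRO-seq, and that over 5 trophoblast markers was 45.4 to 50.3, 13.7 to 75.5 and 0 to 66.6. Nothing in the labels says that libraries of an assay came from separate cultures, so that the p-values below measure the spread between these libraries, which may be technical.

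A few RefSeq promoters are shown first, since their start-site reads are described below: the first start of Ldha and of Pkm, the start of Tpi1 and the internal start of Gapdh. Each runs from 250 bases before the annotated start to 50 after it, on the strand of the gene, in GRCm38.p6; capitals mark the words GGGCGG (a GC box), CACGTG (an E-box) and ACGTG (the core of a hypoxia response element, which every CACGTG contains), on either strand.
Ldha, chr7:46845554-46845853, plus strand: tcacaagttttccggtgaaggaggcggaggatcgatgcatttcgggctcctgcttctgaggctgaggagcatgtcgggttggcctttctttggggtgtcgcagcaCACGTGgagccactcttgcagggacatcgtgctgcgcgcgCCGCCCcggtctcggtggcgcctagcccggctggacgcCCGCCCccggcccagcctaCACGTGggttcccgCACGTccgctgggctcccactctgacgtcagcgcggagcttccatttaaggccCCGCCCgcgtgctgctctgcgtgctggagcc
Pkm, chr9:59656326-59656625, plus strand: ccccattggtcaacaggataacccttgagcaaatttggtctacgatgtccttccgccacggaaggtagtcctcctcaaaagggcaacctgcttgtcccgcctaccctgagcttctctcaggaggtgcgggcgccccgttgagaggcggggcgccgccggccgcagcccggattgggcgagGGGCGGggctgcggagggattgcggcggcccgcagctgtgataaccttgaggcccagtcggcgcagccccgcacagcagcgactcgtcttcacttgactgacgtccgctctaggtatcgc
Tpi1, chr6:124814109-124814408, minus strand: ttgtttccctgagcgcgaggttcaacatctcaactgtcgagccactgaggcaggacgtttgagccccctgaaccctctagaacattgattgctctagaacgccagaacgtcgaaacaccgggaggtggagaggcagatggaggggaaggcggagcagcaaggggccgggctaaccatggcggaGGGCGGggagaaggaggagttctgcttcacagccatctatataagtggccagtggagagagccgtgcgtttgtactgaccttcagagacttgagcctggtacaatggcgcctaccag
Gapdh, chr6:125165724-125166023, minus strand: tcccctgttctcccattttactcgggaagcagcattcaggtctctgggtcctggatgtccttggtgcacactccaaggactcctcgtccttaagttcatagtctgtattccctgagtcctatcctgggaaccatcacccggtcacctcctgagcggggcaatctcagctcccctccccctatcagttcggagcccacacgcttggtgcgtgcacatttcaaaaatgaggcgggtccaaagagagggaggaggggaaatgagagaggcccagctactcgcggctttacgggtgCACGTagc

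The RefSeq table used here holds 16 such promoters of the 10 genes, that of the outer Gapdh start not among them, and 32851 over all genes. The word TATAAA was in 0 of the 16 and in 13.6% of all. GGGCGG was in 11 of the 16, from 9 of the genes, and in 35.7% of all; the internal Gapdh promoter held none. ACGTG was in 7, from Hk2, Aldoa, Gapdh, Pgam1, Pkm and Ldha, and in 19.6% of all, and CACGTG was in 1, that of Ldha, and in 7.15% of all. The median GC content was 63.7% for the 16 and 52.7% for all. These matches describe the letters of the windows and say nothing of what binds there.

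In the gene body, which here leaves out 500 bp on either side of every annotated start and the last 500 bp, the glycolytic genes lay among the more strongly transcribed genes in each assay. The unit is sense UMIs per kb of body per 1000000 UMIs in gene bodies. Over 14693 genes the median level was 1.53 in AGTuC, 1.27 in inAGTuC and 1.11 in scGRO-seq. The glycolytic genes exceeded 85.1% to 99.7% of these genes in AGTuC, 86.1% to 99.0% in inAGTuC and 81.5% to 99.0% in scGRO-seq. Gapdh was the highest of the 10 in AGTuC and Pkm in the other assays, where Pkm, Aldoa and Gapdh differed by less than the SD of Pkm, whereas Hk2 and Pfkl were the lowest in AGTuC and scGRO-seq, and Pfkl, Hk2 and Pgam1 were the lowest in inAGTuC. Levels are given below for the inAGTuC libraries in the order listed above, then for the AGTuC libraries, and for the 10 scGRO-seq batches as lowest, median and highest.

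The steps that use ATP come first. Hk2, a hexokinase that phosphorylates glucose (chr6:82725025-82774454, minus strand), had levels of 3.36, 4.50, 2.69 and 1.78 in inAGTuC, 6.09 and 5.64 in AGTuC, and 1.29, 2.38 and 3.33 in scGRO-seq. Both AGTuC libraries lay above every inAGTuC library and every batch. Gpi1, which turns glucose 6-phosphate into fructose 6-phosphate (chr7:34201327-34230336, minus strand), had 5.39, 13.2, 5.23 and 4.85 in inAGTuC, 9.55 and 8.84 in AGTuC, and 3.53, 5.10 and 12.4 in scGRO-seq. Here the groups overlapped, and the highest inAGTuC library (Exp208_c14) and the highest batch (Exp208) carried the same experiment code. The other inAGTuC library with that code, Exp208_c12, was at 5.39. Pfkl, the liver-type phosphofructokinase of the committed step (chr10:77986947-78009807, minus strand), had 3.27, 3.56, 2.66 and 2.68 in inAGTuC, 5.54 and 5.11 in AGTuC, and 1.26, 2.76 and 3.76 in scGRO-seq, so that AGTuC again lay above both other assays.

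Aldolase A and triose phosphate isomerase split the hexose and interconvert its products. Aldoa (chr7:126795234-126800447, minus strand) had levels of 10.1, 17, 9.64 and 7.95 in inAGTuC, 24.7 and 21.7 in AGTuC, and 4.38, 11.4 and 25.8 in scGRO-seq. Tpi1 (chr6:124810586-124814158, minus strand) had 7.72, 4.32, 2.71 and 3.39 in inAGTuC, 11.8 and 13 in AGTuC, and 0, 3.84 and 13.5 in scGRO-seq. For both genes AGTuC exceeded every inAGTuC library and overlapped the range of the scGRO-seq batches. The body of Tpi1 is short and rests on 20 UMIs in inAGTuC, 105 in AGTuC and 47 in scGRO-seq.

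The later steps return ATP and NADH. Gapdh, which oxidizes glyceraldehyde 3-phosphate (chr6:125161852-125166467, minus strand), had levels of 9.52, 12.2, 9.56 and 11.1 in inAGTuC, 79.0 and 70.8 in AGTuC, and 6.45, 11.5 and 21.4 in scGRO-seq. The lower AGTuC library was more than 3 times the highest batch, the widest gap between assays among the 10 genes. Pgam1, which moves the phosphate of phosphoglycerate (chr19:41911871-41918665, plus strand), had 5.49, 4.22, 2.81 and 2.58 in inAGTuC, 12.4 and 13.2 in AGTuC, and 0.371, 4.31 and 13.9 in scGRO-seq, where 1 batch reached the AGTuC level. Eno1, the enolase that makes phosphoenolpyruvate (chr4:150236708-150248879, plus strand), had 8.58, 7.93, 6.77 and 12 in inAGTuC, 29.5 and 26.8 in AGTuC, and 5.45, 8.17 and 11 in scGRO-seq, with no overlap between AGTuC and the other assays.

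Pkm, the pyruvate kinase of the last step that makes ATP (chr9:59656576-59679372, plus strand), had levels of 10.5, 17.1, 9.46 and 15.8 in inAGTuC, 30.8 and 31.1 in AGTuC, and 10.5, 13.2 and 26.6 in scGRO-seq. Ldha, the lactate dehydrogenase subunit A (chr7:46845804-46855627, plus strand), had 4.06, 7.10, 6.84 and 7.81 in inAGTuC, 15.9 and 19.3 in AGTuC, and 3.78, 6.44 and 9.78 in scGRO-seq. In both genes AGTuC lay above every other library and batch. Both AGTuC libraries were above all 4 inAGTuC libraries in 9 of the 10 genes and above all 10 batches in 6. The share of all genes placed in this way was not counted.

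**Figure D1:**
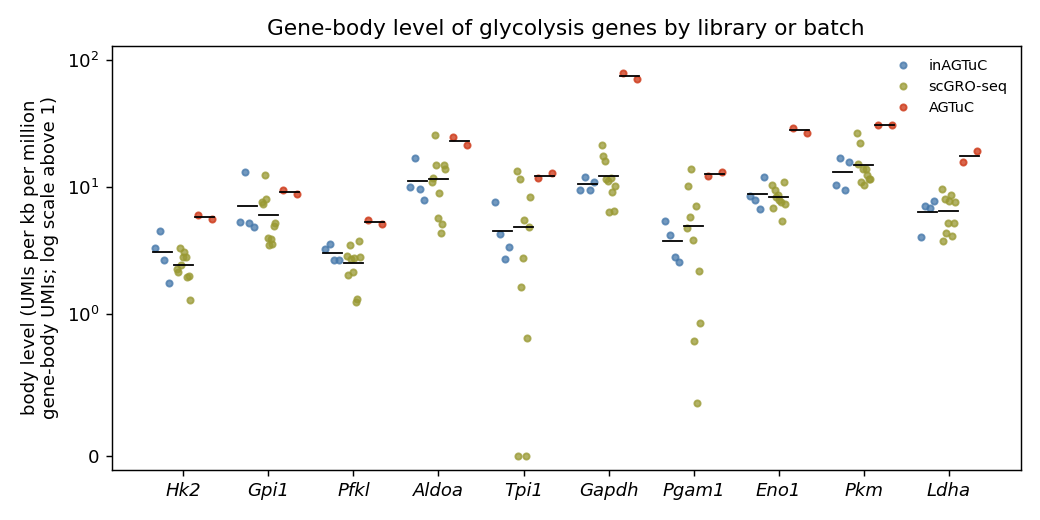
Gene-body level (sense UMIs per kb per 1000000 gene-body UMIs, log axis above 1) of each glycolytic gene in the AGTuC libraries, the inAGTuC libraries and the scGRO-seq batches; points are libraries or batches and bars are means. AGTuC points lie above every inAGTuC point in 9 of 10 genes, a count not made over all genes, and Gapdh shows the widest separation.

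Set against inAGTuC, body levels in AGTuC were higher for 7 of the 10 genes (limma voom, Benjamini-Hochberg adjusted p under 0.05), where 16.6% of 14693 genes were higher and 16.5% were lower. The median log2 difference of the 10 was 1.31, and that of all genes tested was 0.19. Gapdh differed most, by 2.75 ± 0.32 (SE) on the log2 scale (limma voom with Benjamini-Hochberg adjustment, adjusted p = 1.27e-05), with means of 74.9 ± 5.77 (SD, n = 2) and 10.6 ± 1.29 (SD, n = 4). Eno1 was higher by 1.65 ± 0.27 (limma, adjusted p = 0.000224), Ldha by 1.39 ± 0.31 (limma, adjusted p = 0.0024), Pkm by 1.24 ± 0.28 (limma, adjusted p = 0.00235) and Hk2 by 1.04 ± 0.30 (limma, adjusted p = 0.0117). Pgam1, at 1.87 ± 0.69 (limma, adjusted p = 0.0407), and Aldoa, at 1.10 ± 0.43 (limma, adjusted p = 0.0498), passed narrowly. The differences for Tpi1, 1.52 ± 0.61 (limma, adjusted p = 0.056), Pfkl, 0.81 ± 0.32 (limma, adjusted p = 0.0501), and Gpi1, 0.49 ± 0.37 (limma, adjusted p = 0.319), did not pass.

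Gapdh and Eno1 passed under each of 25 alternative settings, Pkm and Ldha under 24, and Hk2 under 21, whereas Pgam1 passed under 13 and Aldoa under 10. These settings include each of the 10 scGRO-seq batches left out, and nearby UMIs of a scGRO-seq cell counted once. Such changes alter no AGTuC or inAGTuC count. They bear on the contrast only through the shared fit and the set of genes tested. The 7 called became 4 without the inAGTuC library Exp261_c16, where 1597 of 14495 genes were higher. With 1 AGTuC library left out, fewer of the 10 genes passed, and so did fewer of all genes. The median log2 difference of the 10 was then 1.38 (without Exp125c_c01) or 1.24 (without Exp125c_c02), against 0.18 and 0.16 for all genes. Both AGTuC libraries belong to 1 experiment that holds no other assay, so that assay and experiment cannot be told apart. The summed ES-cell markers and the summed neural markers were higher in AGTuC as well, as given above, and their part in the result was not tested. In libraries of a population, fewer transcribing cells and less RNA per cell cannot be told apart.

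**Figure D2:**
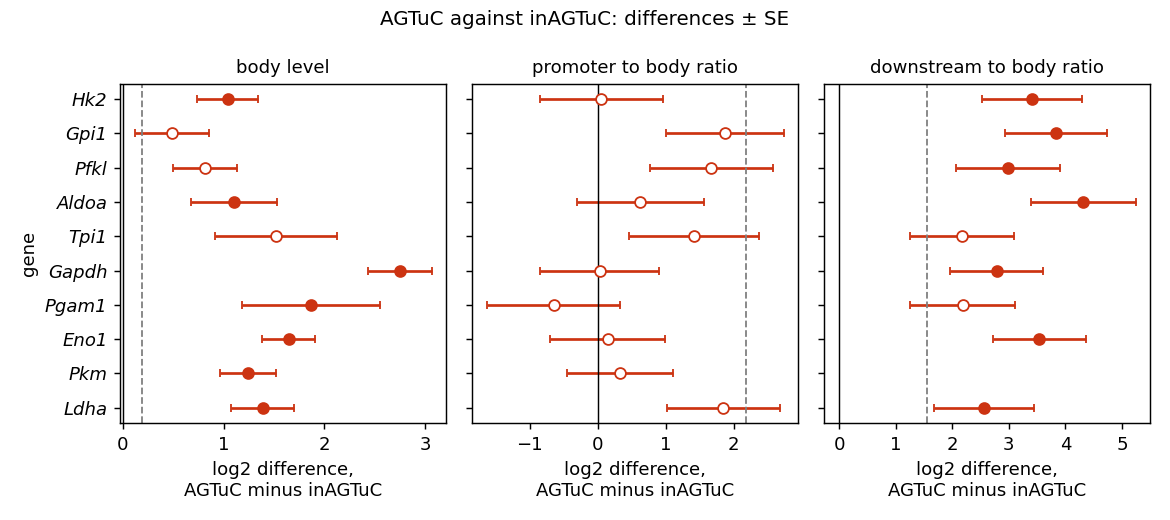
Log2 differences (limma voom) of AGTuC from inAGTuC, with standard errors, for each glycolytic gene in the gene-body level, the promoter-to-body ratio and the downstream-to-body ratio; filled circles have an adjusted p under 0.05 and the dashed line is the median of all genes tested. AGTuC lies above the all-gene median for the body level in 10 of 10 genes, above it for the downstream ratio in 9 of 9, and below it for the promoter ratio in 10 of 10.

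Between the scGRO-seq batches and the inAGTuC libraries, both made from intact nuclei, no glycolytic body level differed beyond the spread. This contrast and the one above share the inAGTuC libraries. Against inAGTuC, 0 of the 10 glycolytic genes and 0 (0.0%) of 14693 genes were higher in scGRO-seq, and 0 were lower (limma voom; at an unadjusted p under 0.05, 131 were higher and 631 lower, and limma-trend called 0). The differences of the 10 ran from −0.37 (Tpi1, 95% interval −1.59 to 0.84) to 0.10 (Pkm, −0.38 to 0.57), with a median of −0.26 against −0.13 for all genes. The interval of Pgam1 was wider still (−1.74 to 1.01) and that of Eno1 narrower (−0.61 to 0.35). Exp208 is the 1 experiment among the named batches that also has inAGTuC libraries. Within it scGRO-seq was above inAGTuC in 9 of 10 genes, by −0.28 to 1.09 with a median of 0.42 and no test. This is the other direction from the pooled median, and whether all genes shifted likewise within Exp208 was not tested.

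Aldoa, Tpi1, Gapdh and Ldha had a larger share of their reads near a start site than most genes, in inAGTuC as well as in AGTuC. The promoter share is the percent of promoter and body UMIs that lie within 500 bp of an annotated start. Its median, pooled per assay, was taken over genes with at least 50 body UMIs in that assay. It was 25.6% in AGTuC (10002 genes), 3.57% in inAGTuC (7900) and 3.22% in scGRO-seq (11641). In inAGTuC, Aldoa exceeded 99.9% of these genes, Tpi1 99.8%, Gapdh 99.7%, Ldha 99.0%, Pgam1 95.1% and Pkm 93.7%, and Gpi1, the lowest, 47.6%. Tpi1 and Pgam1, with 20 and 38 body UMIs in inAGTuC, are themselves under that minimum. In AGTuC only Tpi1, Aldoa, Ldha and Gapdh of the 10 had a share above that of most genes, exceeding 92.4%, 89.8%, 88.0% and 61%. Tpi1, Gapdh and Aldoa span only 3573, 4616 and 5214 bp. Their promoter windows, which lie partly before the start, cover 1001, 1695 and 2078 bp, against bodies of 2572, 2921 and 3136 bp. Ldha, with 2 starts, has windows of 2002 bp and a body of 7822 bp. The part of gene length and window length in the share was not tested. Per kb, the promoter density of Gapdh was 0.69 times its body density in inAGTuC (median of libraries), 0.79 in AGTuC (mean) and 0.40 in scGRO-seq (median of batches). For Aldoa these values were 1.01, 1.67 and 0.58, for Tpi1 1.17, 3.36 and 0.50, and for Ldha 1.25, 4.47 and 0.90. By density, then, the promoter of Gapdh was mostly below its body in each assay, and that of Aldoa was below it in 9 of 10 batches. The promoter of Tpi1 rests on 13 UMIs in inAGTuC.

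Aldoa had promoter shares of 42.9%, 36.8%, 75.5% and 13% in the inAGTuC libraries, 49.1% and 55.6% in AGTuC, and 0%, 27.8% and 66.7% (lowest, median, highest) in the scGRO-seq batches. Tpi1 had 0%, 16.7%, 70.0% and 41.7% in inAGTuC, 54.9% and 58.3% in AGTuC, and 0%, 16.2% and 39.3% over the 8 batches with any promoter or body read. Gapdh had 36.4%, 15.8%, 55.6% and 18.8% in inAGTuC, 32.2% and 30.5% in AGTuC, and 0%, 18.6% and 50.0% in scGRO-seq. In these 3 genes the AGTuC values lay inside the range of the inAGTuC libraries, in which Exp234_c11 was the highest. Over the 10 genes Exp234_c11 had the highest promoter share of the inAGTuC libraries in 7.

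Ldha had promoter shares of 46.7%, 13.8%, 32.4% and 10.9% in inAGTuC, 57% and 49.1% in AGTuC, and 9.09%, 18.8% and 50.0% in scGRO-seq. Pooled over libraries its share was 51.6% (95% Wilson interval 48.5% to 54.8%, 493 of 955 UMIs) in AGTuC and 21.1% (15.0% to 28.7%) in inAGTuC. Pfkl had 5.26%, 7.89%, 10.7% and 6.0% in inAGTuC, 17.9% and 28% in AGTuC, and 0%, 0% and 20.7% in scGRO-seq. Ldha, Pfkl, Gpi1 and Eno1 were the 4 genes in which both AGTuC libraries exceeded every inAGTuC library. How many of all genes did so was not counted. The pooled shares of Hk2 (4.32% in AGTuC, 5.04% in inAGTuC, 4.49% in scGRO-seq), Eno1 (8.43%, 7.14% and 5.12%) and Pkm (13.6%, 12.4% and 10.8%) were close between assays, that of Pgam1 was 9.33%, 13.6% and 4.46%, and that of Gpi1 was 8.44%, 3.34% and 2.55%. The intervals cover counting error only.

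**Figure D3:**
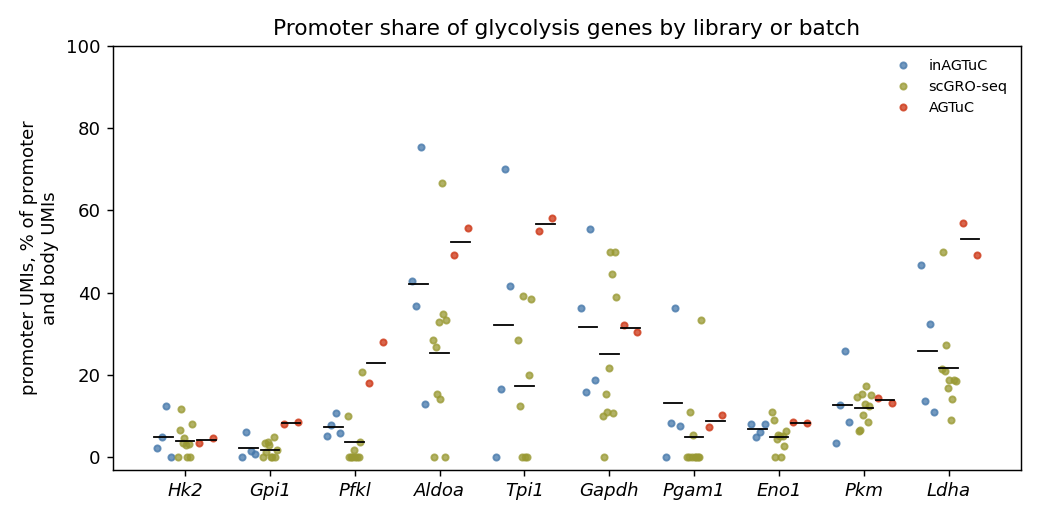
Promoter share (percent of promoter and body UMIs within 500 bp of an annotated start) of each glycolytic gene by assay. Points are libraries or batches and bars are means. Over genes with at least 50 body UMIs in the assay, the median share was 25.6% in AGTuC and 3.57% in inAGTuC. Aldoa, Tpi1, Gapdh and Ldha have the 4 highest means in each assay. Both AGTuC points exceed every inAGTuC point in 4 genes, a count not made over all genes.

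The ratio of promoter to body was higher in AGTuC than in inAGTuC for 49.3% of 12311 genes and lower for 77 genes, with a median log2 difference of 2.19, whereas 0 of the 10 glycolytic genes passed (limma voom with Benjamini-Hochberg adjustment, smallest adjusted p = 0.0564). At an unadjusted p under 0.05 there were 7041 genes higher and 101 lower, and 2 glycolytic genes, Ldha and Gpi1; limma-trend also called 0 of the 10. The glycolytic genes ran from −0.65 to 1.87 with a median of 0.48 and standard errors of 0.78 to 0.98, and 0 of 10 lay above the median of all genes. Without the inAGTuC library Exp234_c11, 2 of the 10 passed (Tpi1 and Ldha), where 6628 of 12032 genes were higher. The median of the 10 was then 1.09 against 2.43 for all genes. In scGRO-seq against inAGTuC, 0 of the 10 and 0.0% of 12311 genes were higher (limma voom; unadjusted, 344 higher and 163 lower, and limma-trend called 0), and the glycolytic genes ran from −1.16 to 0.26. Within Exp208 they ran from −1.84 to 1.62, with 3 of 10 above 0 and no count over all genes.

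Within 250 bp of the first start of Ldha and of both starts of Pkm, most AGTuC reads lay 20 to 120 bases past the annotated base. At the first start of Ldha there were 289 AGTuC UMIs, of which 80.3% lay in that stretch, with the most (20 UMIs) at 84 bases, and at its second start 77, of which 29.9% did. At the first start of Pkm there were 154, with 68.8% in that stretch and the most at 33 bases, and at its second start, within the same gene, there were 89 with the most at 54 bases. At the start of Tpi1 there were 103, with 37.9% in that stretch and the most at 1 base. In inAGTuC the same windows held 11 UMIs for the first start of Ldha, 34 for the first start of Pkm and 4 for Tpi1.

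The internal start of Aldoa at chr7 position 126799178 held 197 AGTuC UMIs, of which 73.6% lay 20 to 120 bases past it. The next start, at 126799254, held 191 in a window that overlaps the first and shares reads with it, 14.1% of them in its own such stretch. The start at 126799178 also held 53 inAGTuC UMIs, 79.2% of them in that stretch. The outermost start of Aldoa held 7 and 0. Gapdh had 61 AGTuC UMIs at its outer start and 38 at the internal start printed above, where the most lay 224 bases past it. Pfkl had 94 AGTuC and 5 inAGTuC UMIs, Gpi1 62 and 5, Hk2 33 and 10, and Pgam1 5 and 4.

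For the glycolytic genes, AGTuC and inAGTuC parted most past the annotated end. Over all genes they parted more in the promoter ratio, with a median log2 difference of 2.19 against 1.56 downstream. In the 5 kb after a glycolytic gene, AGTuC had 0.767 (Ldha) to 3.24 (Pfkl) times the density of reads in its body, and inAGTuC had 0.0377 (Gpi1) to 0.380 (Pgam1) times (means over libraries). Over all genes with at least 50 body UMIs, pooled per assay, the median was 1.52 in AGTuC, 0.380 in inAGTuC and 0.405 in scGRO-seq. In AGTuC 4 of the 9 glycolytic genes lay above the typical gene and 5 below it, exceeding 17.3% (Ldha) to 90% (Pfkl) of genes. In inAGTuC all 9 lay below it, exceeding 6.16% (Gpi1) to 46.2% (Pfkl), though Tpi1 and Pgam1 have fewer than 50 body UMIs there. The window stops at the next gene of the same strand, which left 4656 bp for Gpi1, 2686 bp for Aldoa and no window for Pkm. The measure is the downstream density divided by the body density, both in UMIs per kb.

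Hk2 had ratios of 0, 0.0988, 0 and 0.140 in inAGTuC, 1.30 and 1.51 in AGTuC, and 0, 0.163 and 0.969 (lowest, median, highest) in scGRO-seq. Gpi1 had 0, 0, 0.0955 and 0.0552 in inAGTuC, 1.02 and 0.801 in AGTuC, and 0, 0.125 and 0.388 in scGRO-seq. Pfkl had 0.243, 0.250, 0.700 and 0.279 in inAGTuC, 3.21 and 3.26 in AGTuC, and 0, 0.360 and 2.10 in scGRO-seq. In AGTuC the region after Pfkl, past the end of the phosphofructokinase gene, thus carried a higher density than the gene itself, and the ratio exceeded that of 90% of genes, the highest rank of the 9, with Aldoa next at 68.5% and the others at 54.7% or less.

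Aldoa had ratios of 0.146, 0, 0.180 and 0.0584 in inAGTuC, 1.77 and 2.19 in AGTuC, and 0, 0.175 and 0.584 in scGRO-seq. Gapdh had 0.0835, 0.110, 0.146 and 0.135 in inAGTuC, 0.90 and 0.982 in AGTuC, and 0, 0.100 and 0.195 in scGRO-seq. Eno1 had 0.0927, 0.224, 0.0687 and 0.0828 in inAGTuC, 1.53 and 1.56 in AGTuC, and 0, 0.160 and 0.592 in scGRO-seq. In each of these genes AGTuC lay above every other library and batch. Ldha had 0.391, 0, 0.136 and 0.0958 in inAGTuC, 0.913 and 0.621 in AGTuC, and 0, 0.0356 and 0.469 in scGRO-seq.

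Tpi1 had 0.103, 0.206, 0.686 and 0.367 in inAGTuC, 1.43 and 1.37 in AGTuC, and 0, 0.231 and 1.03 over 8 batches. Its end overlaps Spsb2 on the other strand, and reads are kept apart by strand. Pgam1 had 0.290, 0.211, 0.828 and 0.193 in inAGTuC, 1.72 and 1.60 in AGTuC, and 0, 0.338 and 3.48 in scGRO-seq, where 1 batch was higher on 3 downstream UMIs and 1 body UMI. The 2 AGTuC libraries thus exceeded every inAGTuC library in 9 of 9 genes and every batch in 8, and all genes were not counted in this way.

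The ratio of downstream to body was higher in AGTuC than in inAGTuC for 7 of the 9 glycolytic genes (limma voom, Benjamini-Hochberg adjusted p under 0.05), where 27.8% of 12052 genes were higher and 1.66% were lower. The median log2 difference was 2.99 for the 9 and 1.56 for all genes, and 9 of 9 lay above the latter, with inAGTuC ratios that ranked low and AGTuC ratios that ranked on both sides of the typical gene, as given above. Aldoa differed by 4.31 ± 0.93 (SE; limma, adjusted p = 0.00102), Gpi1 by 3.83 ± 0.90 (limma, adjusted p = 0.00215), Eno1 by 3.54 ± 0.83 (limma, adjusted p = 0.00212) and Hk2 by 3.41 ± 0.88 (limma, adjusted p = 0.00468). Pfkl, Gapdh and Ldha followed with 2.99, 2.78 and 2.56. Pgam1, at 2.18, and Tpi1, at 2.17, did not pass (limma, adjusted p = 0.0658 and 0.066).

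The inAGTuC side of these ratios rests on few reads. Hk2 had 135 downstream and 909 body UMIs in AGTuC and 2 and 264 in inAGTuC, a ratio of ratios of 19.6 with a 95% counting interval of 5.25 to 164. Gapdh had 1136 and 696 in AGTuC and 13 and 61 in inAGTuC, which gave 7.65 (4.12 to 15.3). With 1 AGTuC library left out, fewer of the 9 genes passed, and so did fewer of all genes. The median log2 difference of the 9 was then 3.00 (without Exp125c_c01) or 2.98 (without Exp125c_c02), against 1.59 and 1.70 for all genes. With the experiment as a random block the called count of 7 became 4, where 1198 of 12052 genes were higher. Without the inAGTuC library Exp234_c11 it was 9, where 3735 of 11595 genes were higher.

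Along the 5 kb, the 7 genes with a full window (Hk2, Pfkl, Tpi1, Gapdh, Pgam1, Eno1 and Ldha) had AGTuC densities of 0.88 times their body density in the last kb before the end, 2.69 in the first kb past it, and 1.76, 1.12, 0.30 and 0.31 in the next 4 (medians over genes). In inAGTuC the medians were 0.81 before the end and 0.43, 0.15, 0.17, 0.00 and 0.07 past it, and in scGRO-seq 0.79, then 0.43, 0.16, 0.22, 0.11 and 0.12. The AGTuC median was thus highest just past the end and under the body density beyond 3 kb. In the other assays it was under the body density from the end on. Single genes departed from the AGTuC median. Hk2 was at 1.39 from 0 to 1 kb, 1.76 from 3 to 4 kb and 1.17 from 4 to 5 kb. Tpi1 was at 0.07 from 3 to 4 kb and 1.94 (79 UMIs) from 4 to 5 kb.

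**Figure D4:**
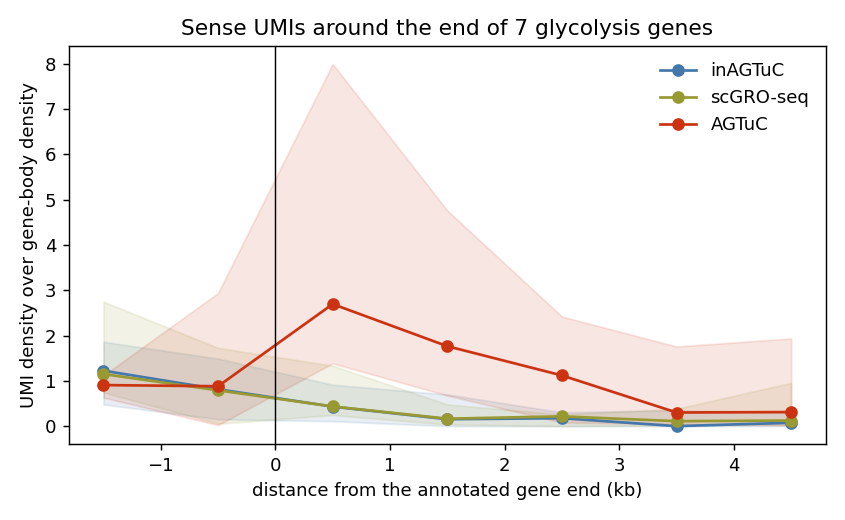
Density of sense UMIs by distance from the annotated gene end (kb) divided by the gene-body density, for the 7 glycolytic genes with a full 5-kb window; lines are medians over genes and bands run from the lowest to the highest gene. AGTuC peaks in the first kb past the end at 2.69, where inAGTuC and scGRO-seq are at 0.43.

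Between the intact-nuclei assays 0 of the 9 genes and 0.0% of 12052 genes had a higher downstream ratio in scGRO-seq (limma voom; unadjusted, 511 higher and 138 lower, and limma-trend called 0). The 9 differences ran from −0.22 to 1.60, the latter for Hk2 (unadjusted limma p = 0.0227, 95% interval 0.23 to 2.97). Within Exp208 they ran from −2.32 to 1.31, with 2 of 9 above 0 and no count over all genes. Their median there was −0.85 against 0.11 in the fit over all batches.

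Among the listed reads, intron reads of these genes had mapping qualities about like those of reads on other genes. Exon reads of several, among them Ldha and Aldoa, had lower ones. The aligner's mapping quality was at least 10 in 89.3% to 93.2% of intron reads and in 81.0% to 92.3% of exon reads of the 10 genes, against a median of 89.7% over 15922 genes. It was at least 30 in 62.1% to 67.9% of intron reads and in 42% to 67.5% of exon reads, against 63.6%. Ldha and Aldoa were lowest in exons, with 81.0% and 81.5% at 10 or more and 49.7% and 42% at 30 or more. No read of the lists of these libraries and batches had a quality under 3. In AGTuC alone the medians over the 10 genes were 92.9% for introns and 89.7% for exons at 10 or more, in inAGTuC 86.5% and 83.9%, and in scGRO-seq 86.6% and 83.3%.

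A search of the genome with the exons (at least 90% identity over at least 80 bp of at least 2 exons within 3 kb) found 265 copies, of which 202 were of Gapdh, 23 of Ldha, 10 of Pkm, 9 of Aldoa, 9 of Eno1, 7 of Tpi1, 4 of Pgam1, 1 of Gpi1 and 0 of Hk2 and Pfkl. UMIs at a copy were counted on both strands from its first to its last match, so that they need not be reads of the glycolytic gene. The Gapdh copies held 538 such UMIs in the 3 assays, 430 of them with a mapping quality of at least 10. That is 40.7 for every 100 sense UMIs on Gapdh itself. Those of Eno1 held 194, of Ldha 182 and of Pkm 142. The single Gpi1 copy held 97, and the annotated pseudogene Gpi-ps held 95 of the 172 UMIs on 18 annotated pseudogenes of these genes. In AGTuC the exons of Gapdh, Pgam1 and Eno1 had 0.249, 0.149 and 0.502 times the density of their introns, and those of the other 7 had 1.11 to 2.55 times. Reads on exons that match a copy could have been placed at either, or be missing, as the lists hold no read of a quality under 3. The exon levels of these genes are thus uncertain. With reads of mapping quality 10 or more, body levels of 7 genes were higher in AGTuC, with Pfkl among them and Pgam1 no longer so, where 2164 of 14251 genes were higher and 2241 lower.

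Over all single cells pooled, most had a read on some glycolytic gene, and a minority on any given one. Of 2507 kept cells, 1901 (75.8%, 95% Wilson interval 74.1% to 77.5%) had at least 1 sense UMI on the span of any of the 10 genes. Over the 10 batches the share was 76.1% ± 7.67 (SD), from 66.4% in Exp260b to 87.3% in Exp208. Cells with 0 of the genes numbered 606, with 1 gene 853, with 2 genes 563, with 3 genes 308 and with 4 genes 109. Cells with 5, 6, 7 and 8 genes numbered 43, 17, 5 and 3, and none of the 2507 had 9 or 10. The paper estimates that scGRO-seq captures only a small part of nascent RNA. A cell without a UMI is thus not shown to be without transcription of the gene.

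Pkm, the gene of pyruvate kinase, was caught most, in each batch and in 45.3% of all cells (43.7% ± 10.5 over batches, from 29.5% in Exp263 to 61.2% in Exp156), with 1.51 UMIs per cell that had any and at most 6. Gpi1 was in 23% (24.2% ± 9.94), Hk2 in 20.5% (18.5% ± 7.12) and Eno1 in 16.2% (15.1% ± 4.51). Ldha was in 10.4%, Pfkl in 9.73%, Gapdh in 8.30% and Aldoa in 8.26%, with batch ranges of 6.38% to 14.6%, 2.54% to 13.2%, 4.78% to 12.1% and 4.92% to 16.4%. These ranges overlap, so that the order among the 4 is not set by the batches. Pgam1, in 3.87%, and Tpi1, in 2.71%, were lowest over all cells pooled, of which 809 are from Exp236, but not in each batch: Pgam1 exceeded Pfkl in Exp160, Exp211 (13.6% against 11.8%) and Exp260. Tpi1 was in 0 of 118 cells of Exp260.

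The genes differ in length: the Pkm span is 22797 bp and the Tpi1 span 3573 bp. Thinned to 1000 UMIs per cell, any of the genes was in 35% of cells (37.9% ± 13.9 over batches), Pkm in 14.7% and Tpi1 in 0.678%, and no cell was left out. The batch with the lowest median depth, Exp156 at 1864 UMIs per cell, then had the highest share for any gene, 63.1%, and for Pkm, 36.9%. In thinned cells Pkm led in 8 of 10 batches: in Exp211 Gpi1 was in 13.6% and Pkm in 7.27%, and in Exp246 Hk2 was in 10.8%, Eno1 in 9.68% and Pkm in 6.45%. For scale, Gapdhs, a form of Gapdh known from testis, had 76 promoter and body UMIs over the kept cells against 215 for Gapdh.

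**Figure D5:**
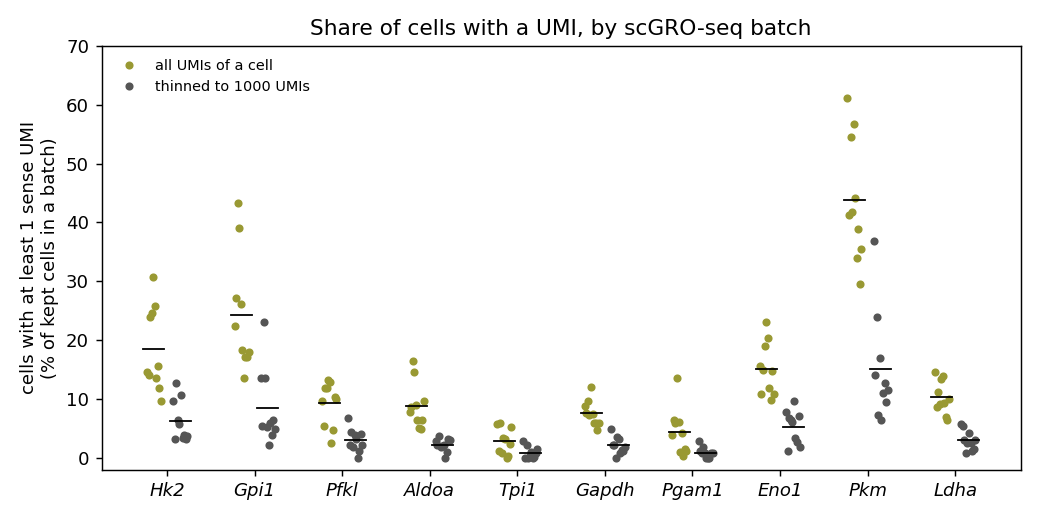
Percent of kept scGRO-seq cells with at least 1 sense UMI on each glycolytic gene, by batch (points, with means as bars), as counted and after thinning each cell to 1000 UMIs. Pkm is highest at 45.3% of the pooled cells and Tpi1 lowest at 2.71%.

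Among 16 other isozymes and steps of the pathway, 10 were measurable in the body, of which 1 was higher in AGTuC, Pfkm (muscle-type phosphofructokinase, 1.14 ± 0.44 on the log2 scale, limma, adjusted p = 0.0483), and 1 was lower, Gapdhs, with 0 UMIs in AGTuC and 33 in inAGTuC (limma, adjusted p = 0.00738). Of all genes, as given above, 16.6% were higher in the body, 49.3% in the promoter ratio and 27.8% in the downstream ratio. Pgk1, the phosphoglycerate kinase of the step between Gapdh and Pgam1, had mean levels of 6.0 in AGTuC, 3.65 in inAGTuC and 2.68 in scGRO-seq. The promoter ratio was higher for 2 of 8, Ldhb (3.31) and Pfkp (2.25), and the downstream ratio for 1 of 9, Ldhb (2.45). Hk1, the other common hexokinase, had 1.15, 0.877 and 0.754, below Hk2 in each assay.

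Of 14 genes of transport and regulation, the body level was higher in AGTuC for 3, the glucose transporters Slc2a1 (1.98) and Slc2a3 (1.14) and the fructose bisphosphatase Tigar (1.31), with a list median of 0.42 against 0.19 for all genes, of which 16.6% were higher. The downstream ratio was higher for 7 of 14, led by Slc2a3 (4.45), Slc2a1 (3.51) and the lactate transporter Slc16a1 (3.23), with a median of 2.23 against 1.56 and 27.8% of all genes higher. The promoter ratio was higher for 5 of 14, led by the pyruvate carrier subunits Mpc2 (4.53) and Mpc1 (3.42) and the hypoxia factor Hif1a (3.29), with a median of 1.94 against 2.19 and 49.3% of all genes higher. In the body the glucose transporters had mean levels of 34.6 (Slc2a1) and 27.5 (Slc2a3) in AGTuC, near those of Pkm and Eno1, and 8.71 and 12.8 in inAGTuC.

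Of 7 genes of the pentose phosphate pathway, which branches off at glucose 6-phosphate, 4 were higher in the body in AGTuC, led by Pgls (2.47), Taldo1 (1.69) and Tkt (1.47), with a median of 1.24 (all genes: 16.6% higher, median 0.19). The downstream ratio was higher for 0 of 7 (median 1.71; all genes 27.8% higher, median 1.56) and the promoter ratio for 3 (Rpia, G6pdx and Rpe, median 0.74; all genes 49.3% higher, median 2.19). Of 6 gluconeogenesis genes only 2 were measurable, and the downstream ratio of Pck2 was higher (3.13). In scGRO-seq against inAGTuC, 0 genes of these lists passed for any measure.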

How the data were processed

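The deposited data were 82 lists of nascent RNA reads from mouse ES cells (76 scGRO-seq, 4 inAGTuC, 2 AGTuC). Per the submitters' processing notes the authors used cutadapt, Bowtie2 and UMI-tools with mm10; their versions are not given in the sources used here. Each line of a deposited list is 1 deduplicated read with its position, strand, barcode and, as its score column, the aligner's mapping quality (3 to 44 in the lists of the libraries and batches compared).

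No column holds counts, so UMIs were counted here. The RNA strand is opposite to the listed strand, and the RNA 3′ end gave the position. Molecules shared between libraries were removed. Barcodes passed with 1000 UMIs and 750 genes or more in libraries where 24 or more did, and were summed over 10 named batches; 23 lists entered no comparison. Genes are RefSeq spans on GRCm38, and read positions on all 22 chromosomes of the lists fell inside its lengths. Minimums were 50 body UMIs and 10 UMIs in the other region. Tests were limma voom (limma 3.58.1, R 4.3.3) in 1 fit per measure over the 3 assays, with ratios taken within a sample as an interaction of region and assay, and Benjamini-Hochberg adjustment over all genes tested (threshold 0.05). The scripts were tested on simulated data with changes of 2 and 4 times. Body-level changes were recovered at 0.981 to 1.025 times their log2 size, and AGTuC ratio changes at 0.849 to 1.105 times. For scGRO-seq against inAGTuC, promoter ratio changes came back at 0.60 and 0.63 times and downstream ratio changes at 0.71 and 0.64 times. False calls were counted for body levels only. Copies were sought by BLAST.

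The named genes are all 10 glycolysis genes, and of each other list the genes called, at most the 3 with the largest differences; others named (Pgk1, Hk1) were added after their values were seen. The genes, lists and tests were chosen with earlier results of these data known. Depth limits precision: gene-body UMIs numbered 1057719 and 2185440 in AGTuC, 251691 to 801919 in inAGTuC and 135161 to 2391462 per scGRO-seq batch, so that 3 UMIs amount to 1.25 to 22.2 per 1000000.

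Alternatives changed the mapping-quality minimum, shared molecules, reads on small RNA genes, nearby UMIs, windows, cell filters, batches, the low-count filter, scaling (median of ratios), limma-trend, a random block by experiment, and each library left out.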

Additional observations from a re-analysis of the deposited data

Results flagged for a closer look

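Of 69 groups of 4 to 10 libraries or batches, 15 held a value set apart from the rest of its group by Dixon's criterion. The criterion sets apart about 1 in 20 groups by chance only where values are normally distributed. Several of these groups are shares or ratios that rest on few UMIs, and each of the 15 values was the highest of its group. The count of 15 can thus not be weighed against that rate. The body level of Gpi1 was 13.2 in the inAGTuC library Exp208_c14 (next highest 5.39) and 12.4 in the scGRO-seq batch Exp208 (next 8.05), and that of Aldoa was 25.8 in Exp208 (next 15.1), in UMIs per kb per 1000000.

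Promoter shares set apart were those of Pfkl and Pgam1 in Exp264a (20.7%, next 10.0%, and 33.3%, 1 of 3 UMIs, next 11.1%), Aldoa in Exp260 (66.7%, 4 promoter and 2 body UMIs, next 34.8%) and Ldha in Exp160 (50.0%, 4 and 4, next 27.3%). The downstream density over body density was set apart for Pfkl and Pgam1 in the inAGTuC library Exp234_c11 (0.6995 and 0.828), for Eno1 in Exp208_c14 (0.224), for Tpi1 in the batch Exp211 (1.03, from 2 downstream UMIs and 1 body UMI), for Pgam1 in Exp246 (3.48, from 3 and 1), and for Pfkl and Ldha in Exp260b (2.105 and 0.469). The share of cells with a Pgam1 UMI was 13.6% in Exp211, with the next batch at 6.52%.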

How the results depend on the processing

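Under the 25 settings tried, the body levels and downstream ratios of the glycolytic genes in AGTuC against inAGTuC kept their direction. Settings that change scGRO-seq counts alone, among them each of the 10 batches left out, could hardly move these estimates. The promoter ratios of Hk2, Aldoa, Gapdh, Pgam1, Eno1 and Pkm, 0 of which passed under any of the settings, lay on both sides of 0, for Hk2 from −0.68 to 0.74 and for Pgam1 from −2.12 to 0.04. Of the body levels, 7 were higher in AGTuC, which became 4 with limma-trend (598 of 14693 genes higher) and 5 to 9 with a scGRO-seq batch left out. With an inAGTuC library left out it was 4 to 6, with 4 without Exp261_c16 (1597 of 14495). With 1 AGTuC library left out, fewer of the 10 genes passed, and so did fewer of all genes. A lone AGTuC library is then assumed to vary like the other groups. Of the promoter ratios, 0 were higher, which became 1 with mapping quality of at least 10 (5374 of 11904 genes higher). It became 1 where a cell's UMIs less than 50 bp apart counted as 1 (6295 of 12287), and 2 with a 250-bp window (5508 of 11755). With a library or batch left out it was 0 to 2, with 2 without inAGTuC Exp234_c11 (6628 of 12032). Of the downstream ratios, 7 of 9 were higher, which became 4 with experiment as a random block and 6 to 9 with an inAGTuC library left out (9 without Exp234_c11). With 1 AGTuC library left out, fewer of the 9 passed, and so did fewer of all genes. Over all genes, 1198 of 12052 downstream ratios were higher in AGTuC with the block and 3735 of 11595 without Exp234_c11. Against inAGTuC, 2 downstream ratios were higher in scGRO-seq when libraries rather than batches were the replicates. That setting called 2111 genes for the promoter ratio and 1935 for the downstream ratio, against 0. Leaving out Exp261_c16 called 88 body levels there.

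Scaling by the median of ratios moved the median body difference of all genes from 0.19 to −0.05 and the calls from 2433 higher and 2427 lower to 1630 and 2871; 5 glycolytic genes then passed, with a median of 1.08. Over all genes, the 4860 body calls in AGTuC became 7218 without the low-count filter, 1554 with limma-trend, 2969 with the random block, 2463 without Exp125c_c01 and 827 without Exp125c_c02; the 6147 promoter calls became 3546 and 2567 without these libraries; and the 3550 downstream calls became 2180 with a 2-kb window, 1997 with limma-trend, 1279 with the block, 2188 without Exp208_c14, 2235 without Exp261_c16, 373 and 456. The share of cells with any glycolytic UMI, a mean of 76.1% over batches, was 63.5% with the UMI minimum alone, 86.5% with all deposited reads and 37.9% in thinned cells. The causes were not tested. Depth limits the genes with few body UMIs: in inAGTuC Tpi1 rests on 20 and Pgam1 on 38.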
